A study of Mus musculus with 15 samples.

Results

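Krüppel-like factors are transcription factors that bind GC-rich and CACCC-type DNA through zinc fingers at their C-terminal end. The levels of 9 of their mRNAs, Klf2, Klf3, Klf4, Klf5, Klf6, Klf7, Klf9, Klf13 and Klf15, were followed in mouse fibroblasts after an unfolded protein appeared. The 9 genes were taken by symbol from 20207 measured genes. In fibroblasts the family couples serum, stress, circadian and hormone signals to growth arrest and differentiation. The N-terminal part of each protein sets its partners: Klf2, Klf4, Klf5, Klf6 and Klf7 carry activating regions, Klf3 recruits the corepressor CtBP, and Klf9 and Klf13 bind the corepressor Sin3A. Klf15 stands apart and is best known as a glucocorticoid-induced regulator of metabolism in muscle, liver and kidney.

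mRNA-seq was done on NIH3T3 cells, an established line of fibroblasts from mouse embryos, with a stable DD-sfGFP transgene. Its product joins a destabilizing domain (DD) made from FKBP12 to superfolder GFP, and the domain folds while its ligand Shield-1 (S1) is bound but not once S1 is gone. The control group (labelled cont, stress none, time 0) had 5 samples, and the unfolded-DD groups had 3 samples at 45 min, 3 at 135 min and 4 at 405 min after S1 removal. All 4 groups carried the transgene and had been grown with S1. According to the study's methods, the cells were a pool sorted for high GFP, and S1 was removed by adding purified FKBP(F36V) protein to the medium, so the unfolded DD and the added protein cannot be told apart in these samples. A cell line that was grown without the transgene was not analysed here. The study also did mRNA-seq on cells with superfolder GFP alone, treated with S1 in parallel, and these were not analysed here either. In its RT-qPCR, the study reported no significant change of the measured transcripts in a GFP-only line after S1 withdrawal. Nothing in the labels says that replicates were separate cultures, so the p-values measure the spread between these samples, which may be technical.

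The libraries held 6652539 (control replicate 3) to 30258404 (replicate 1 at 45 min) estimated reads, and they did not form a single set. The slope of expression on the GC content of a gene's exons split them at its widest gap into 10 libraries, from -1.42 to -0.67 log2 units per 10 percentage points of GC, and 5 libraries, from -0.38 to 0.03. The 5 libraries, called library set 2 here, were control replicate 2, replicate 3 at 45 min and replicates 1, 2 and 4 at 405 min, and the other 10 libraries form library set 1. All 135-min samples were in set 1, and 50.1% of the tested genes differed between the sets in a fit with group and set. The sets were drawn from the levels of these same genes, so differences linked to GC content were built in. Adjusted p-values between the sets, here and below, are therefore descriptions. The study's methods name a modified Illumina protocol and the Encore kit for preparing libraries without saying which sample had which, and the labels name the Encore kit for every sample. The 9 fibroblast markers, among them Vim and Col1a1, were found in every sample at 56.1 CPM or more. Each of 9 markers of epithelium, endothelium, leukocytes and muscle was at 0 in at least 1 sample, and none exceeded 3.84 CPM.

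The promoters of the 4 mRNAs that were lower after S1 removal, and of Klf9, the mRNA with the steadiest level, are shown here to let their sequences be compared. Each line gives the 250 bases before the RefSeq transcription start in GRCm38.p6, read 5′ to 3′ on the gene's strand. Capitals mark the letters GGGCGG and CCAAT on either strand and, in Klf2, a match to the binding motif of MEF2 factors.

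Klf2 chr8:72318812-72319061 + strand: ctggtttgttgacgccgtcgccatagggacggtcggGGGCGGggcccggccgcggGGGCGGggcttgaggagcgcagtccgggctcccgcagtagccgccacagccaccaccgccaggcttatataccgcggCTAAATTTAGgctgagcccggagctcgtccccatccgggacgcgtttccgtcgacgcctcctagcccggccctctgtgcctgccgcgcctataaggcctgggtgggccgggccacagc
Klf3 chr5:64803271-64803520 + strand: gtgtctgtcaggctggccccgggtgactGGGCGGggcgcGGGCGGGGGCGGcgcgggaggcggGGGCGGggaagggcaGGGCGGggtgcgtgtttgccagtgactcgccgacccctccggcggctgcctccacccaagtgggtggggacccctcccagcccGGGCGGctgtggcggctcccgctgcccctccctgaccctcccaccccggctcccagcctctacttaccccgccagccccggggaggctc
Klf4 chr4:55532476-55532725 - strand: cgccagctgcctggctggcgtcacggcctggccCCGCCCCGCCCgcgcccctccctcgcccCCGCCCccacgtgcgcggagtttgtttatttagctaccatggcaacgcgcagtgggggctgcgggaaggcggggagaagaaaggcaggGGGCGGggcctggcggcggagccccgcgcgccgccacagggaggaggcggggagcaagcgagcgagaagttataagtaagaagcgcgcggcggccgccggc
Klf6 chr13:5861239-5861488 + strand: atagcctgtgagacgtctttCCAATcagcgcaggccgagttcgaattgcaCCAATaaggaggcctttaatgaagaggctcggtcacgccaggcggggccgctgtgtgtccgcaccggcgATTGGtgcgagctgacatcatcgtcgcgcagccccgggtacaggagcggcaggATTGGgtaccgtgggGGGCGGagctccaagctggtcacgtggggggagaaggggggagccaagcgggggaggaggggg
Klf9 chr19:23140976-23141225 + strand: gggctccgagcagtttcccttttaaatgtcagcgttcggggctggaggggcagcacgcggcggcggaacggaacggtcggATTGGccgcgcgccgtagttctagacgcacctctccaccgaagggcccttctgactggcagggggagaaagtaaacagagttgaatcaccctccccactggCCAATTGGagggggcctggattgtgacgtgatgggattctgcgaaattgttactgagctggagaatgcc

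The 4 promoters of the mRNAs that were lower were rich in G and C, at 71.2% in Klf2, 78.4% in Klf3, 74.0% in Klf4 and 64.8% in Klf6, beside a median of 52.4% over 32851 mouse promoter windows of the same length. GGGCGG, the core of the box bound by Sp1, was present 2 times in Klf2, 6 times in Klf3, 4 times in Klf4 and 1 time in Klf6, and it was not found in the Klf9 window. Of all windows, 32.7% held it. These features were not particular to the mRNAs that were lower. Among other tested Klf genes that were not called, Klf13 had 71.6% G and C with 3 GGGCGG and Klf11 76.8% with 4. Klf12 had 48.0% without GGGCGG, and windows of Klf8 had 54.8% and 62.0% with 1 each. CCAAT, the letters bound by NF-Y, was present 4 times in Klf6 and 3 times in Klf9, where a pair of matches on opposite strands overlap, and 33.8% of all windows held it. The Klf2 window held the MEF2-type match CTAAATTTAG from 118 to 109 bases before the start, which was found in none of the other windows shown and in 2.92% of all windows. MEF2 factors are known to switch on Klf2 in endothelial cells under flow. The CACCC letters were in 52% of all windows and are not marked. Windows for 8 of the 9 genes were matched by symbol.

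Levels of different genes were compared as the deposited RPKM, reads per kilobase of transcript and per 1000000 reads. In control samples Klf6 was highest at 15.5 ± 3.33 RPKM (mean ± SD, n = 5), followed by Klf3 at 11.1 ± 5.78, Klf9 at 9.46 ± 3.09, Klf4 at 7.85 ± 2.61, Klf5 at 4.45 ± 3.72 and Klf2 at 3.26 ± 0.95 RPKM. Klf7 at 1.19 ± 1.54, Klf13 at 1.02 ± 0.69 and Klf15 at 0.01 ± 0.01 RPKM were lowest. Neighbours in this order from Klf6 down to Klf2, and Klf7 and Klf13, differed by less than the larger SD of the pair. The step from Klf2 to Klf7 and the step down to Klf15 were larger than that SD. What the RPKM of a sample was divided by is not given in the sources used here, and the scale differed from CPM in control replicate 3, where Klf6 was the highest of the controls by CPM (200.3) and the lowest by RPKM (11.7).

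**Figure D1:**
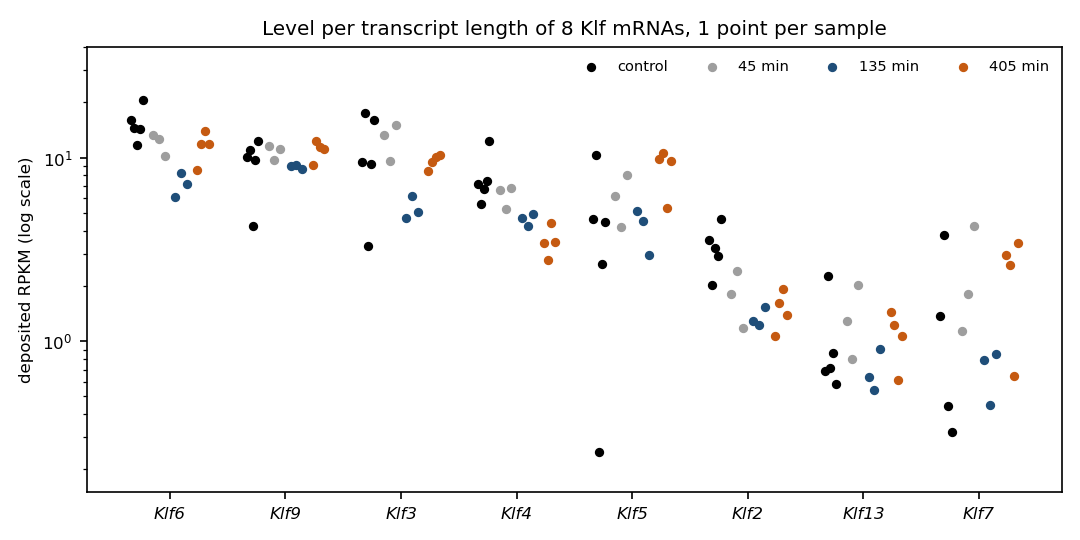
Deposited RPKM, on a log axis, of 8 Klf mRNAs in the 15 samples, grouped by gene along the horizontal axis and coloured by time after S1 removal, with 1 point per sample. Klf15 is left out and the 0 of Klf7 in control replicate 3 cannot be drawn. In control Klf6, Klf3, Klf9 and Klf4 have the highest means, and the lowest Klf5 and Klf3 points there are both from replicate 3. At 405 min every Klf5 point lies above every Klf4 point.

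Changes of a gene across groups were measured in CPM, counts per 1000000 reads of the TMM-scaled library, and tested with edgeR on all genes that had at least 1 count in every sample. This kept 10276 genes and 7 of the 9 members. Klf7 was left out because control replicate 3 had no read, and Klf15 because 9 of the 15 samples had none. A gene is said to have risen or fallen where its p-value, adjusted by the Benjamini-Hochberg method over the 10276 genes, was under 0.05. The 3 time points share the same 5 control samples, so their values against control are not independent. In RNA from whole cultures a change in some cells and a change in all cells cannot be told apart, nor can fewer cells of a type and less RNA per cell.

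At 45 min no member had changed, and 0% of the 10276 genes had fallen under this rule. At 135 min 3 of the 7 tested members, Klf2, Klf3 and Klf6, had fallen and none had risen, while 0.895% of all tested genes had fallen and 0.564% had risen. At 405 min 3 of 7, Klf2, Klf4 and Klf6, had fallen and none had risen, beside 13.4% of all tested genes that fell and 9.99% that rose. Between 135 and 405 min 2 of 7, Klf3 and Klf6, rose, beside 2.24% of all tested genes. The median log2 fold change of the 7 members was -1.02 at 135 min and -0.24 at 405 min, and that of all tested genes was -0.06 and -0.00.

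**Figure D2:**
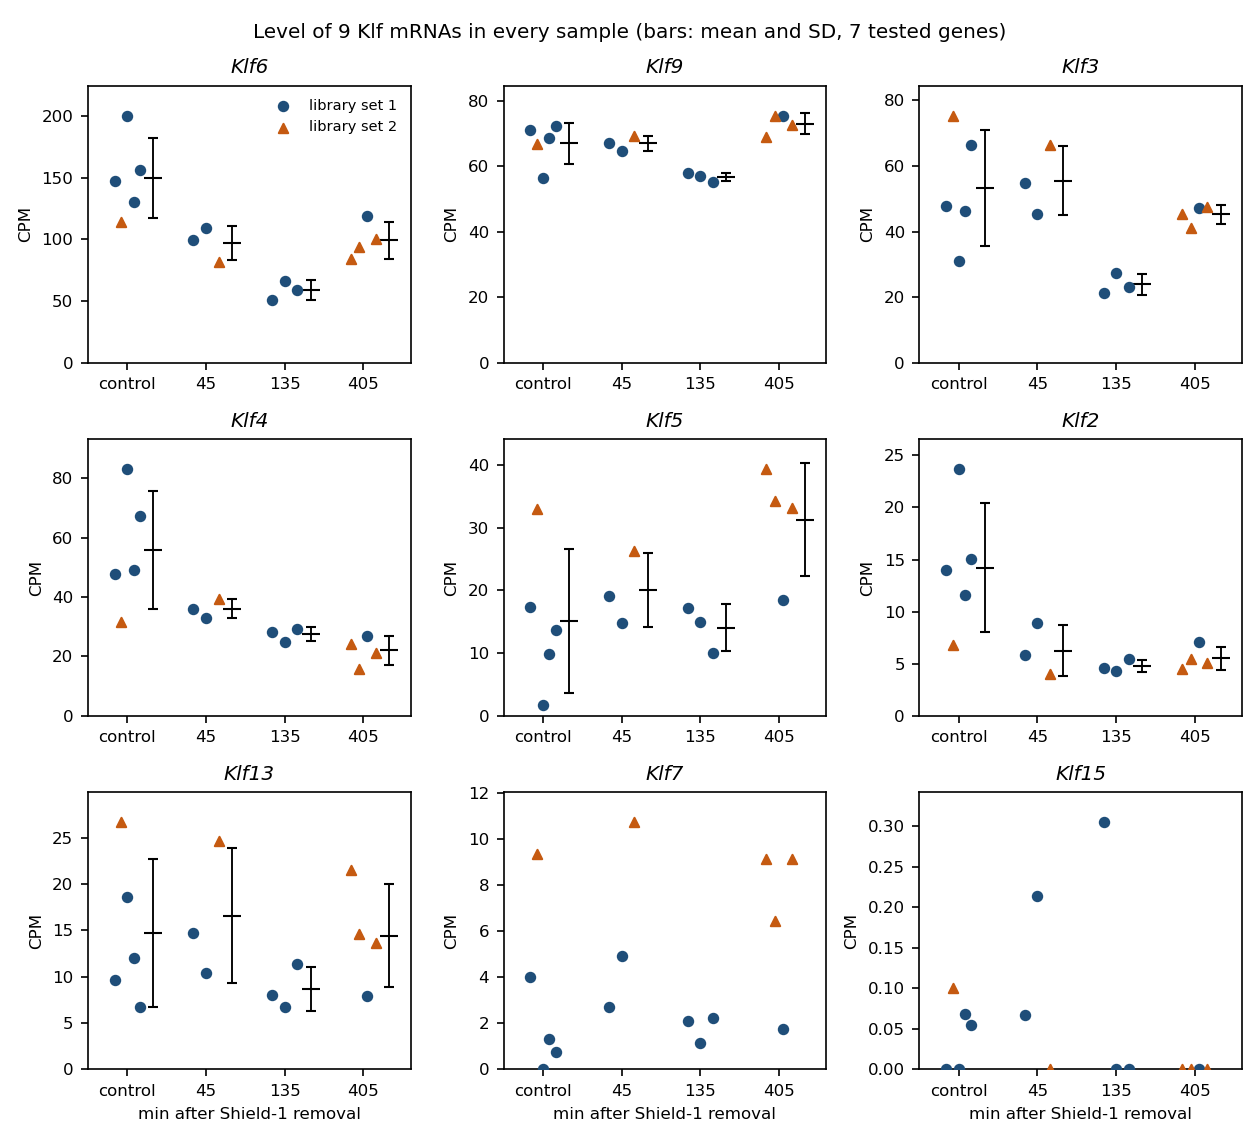
TMM-scaled CPM of each of the 9 Klf mRNAs (vertical axes start at 0 and differ between panels) in control samples and at 45, 135 and 405 min after S1 removal, with 1 point per sample, circles for library set 1, triangles for library set 2, and the mean with its SD beside the points of the 7 tested genes. Klf2, Klf3, Klf4 and Klf6 at 135 min lie below every control sample, Klf9 stays between 55.2 and 75.4 CPM, and the Klf5 and Klf7 triangles lie above all their circles.

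Among the activators, Klf6 is a widely expressed, serum-inducible factor known as a tumour suppressor, encoded at chr13:5860735-5869639, + strand (mm9). Its CPM in control replicates 1 to 5 were 148, 114, 200.3, 131 and 156. They were 99.7, 109 and 81.8 at 45 min, 50.4, 66.6 and 59.2 at 135 min and 83.98, 93.4, 119 and 100.3 at 405 min. Every 45-min and every 135-min sample was below every control sample, and at 405 min only replicate 3 reached above the lowest control. Such a complete separation at 45 min was found in 0.448% of all tested genes and, among the 7 members, in Klf6 alone. It did not hold by RPKM, where control replicate 3, at 11.7, lay below 45-min replicates 1 (13.2) and 2 (12.6). At 135 min Klf6 was 2.55-fold lower than in control (log2 fold change -1.35 ± 0.19 SE, adjusted p = 0.00181), and every 135-min sample was also below every 45-min sample. At 405 min it was 1.51-fold lower than control (-0.59 ± 0.17, adjusted p = 0.0252), after a rise from 135 min of 1.69-fold (0.75 ± 0.20, adjusted p = 0.0412).

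The fall of Klf6 at 135 min was called in every alternative fit that was run. The fall at 405 min was smaller, and not called, once library set was a term of the fit (-0.37, adjusted p = 0.107). The call was also lost with only the compared groups, at a like fold change (-0.59, adjusted p = 0.0731), and without replicate 1, 2 or 4 at 405 min. Within set 1 the only 405-min sample (119 CPM) was below all 4 controls, of which the lowest was 131 CPM. Within set 2 the 3 samples at 405 min, with at most 100.3 CPM, were below the only control at 114 CPM. The log2 fold changes within the sets were -0.42 (adjusted p = 0.406) and -0.31 (adjusted p = 0.514), neither of them called, and each set has a group of a single library. At 45 min the log2 fold change was -0.63 ± 0.19 and did not pass the test (adjusted p = 0.698).

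Klf2, known for its role in quiescent endothelium and T cells and for its induction by shear stress through ERK5 and MEF2, is at chr8:74842961-74845553, + strand (mm9). Its CPM were 13.98, 6.81, 23.7, 11.6 and 15.1 in control replicates 1 to 5. After S1 removal they were 5.85, 8.89 and 4.06 at 45 min, 4.58, 4.28 and 5.44 at 135 min and 4.49, 5.44, 7.05 and 5.06 at 405 min. The lowest control was replicate 2, the only control of library set 2, and it alone came within the range of the treated samples. All 135-min samples lay below all controls. Klf2 was 2.96-fold lower than control at 135 min (log2 fold change -1.56 ± 0.37 SE, adjusted p = 0.0488) and 2.57-fold lower at 405 min (-1.36 ± 0.33, adjusted p = 0.0119).

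At 45 min Klf2 had a log2 fold change of -1.18 ± 0.36, which did not pass the test (adjusted p = 0.698). The call at 135 min was close to the threshold. It was lost with DESeq2 size factors (adjusted p = 0.0535), with filterByExpr (0.0723), without a filter (0.0985) and with only the compared groups (0.199). It was also lost without any 1 of the control replicates 1, 3, 4 and 5 or of the 135-min samples, with adjusted p-values up to 0.25, while the fold change stayed between -1.74 and -1.31. Within library set 1 it was -1.73 (adjusted p = 0.0138). At 405 min, with library set in the fit, the fold change was -0.82 (adjusted p = 0.0714), and within set 1 and set 2 it was -1.18 (adjusted p = 0.244) and -0.45 (adjusted p = 0.564). Klf2 was lower in set 2 than in set 1 by a log2 difference of -0.87 (adjusted p = 0.0106), and 3 of the 4 samples at 405 min but only 1 of the 5 controls were in set 2.

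Klf4, one of the factors used to reprogram fibroblasts to pluripotent cells and otherwise associated with cell cycle arrest, is at chr4:55540009-55545347, - strand (mm9). Its CPM in the controls were 47.8, 31.5, 83.1, 49.1 and 67.2. They were 36.1, 32.8 and 39.4 at 45 min, 28.1, 24.8 and 29.4 at 135 min and 24.3, 15.8, 27.05 and 21.1 at 405 min. Klf4 alone among the members tested was lower in every 405-min sample than in every control sample, a separation seen in 6.43% of all tested genes. It was the member with the lowest adjusted p at 405 min, 2.53-fold lower than control (log2 fold change -1.34 ± 0.25 SE, adjusted p = 0.00254). This call held without any 1 sample, with fold changes from -1.49 to -1.18, and with library set in the fit (-1.10, adjusted p = 0.00781). Within set 1 (-1.20, adjusted p = 0.0929) and within set 2 (-0.64, adjusted p = 0.202) it was not called.

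At 135 min all Klf4 values also lay below all controls, but the log2 fold change of -1.02 ± 0.27 missed the threshold (adjusted p = 0.0888). With library set in the fit it passed (-1.07, adjusted p = 0.0124), as it did within set 1 (-1.16, adjusted p = 0.0138) and in DESeq2 (-1.03, adjusted p = 0.0111). Klf4 did not differ between 135 and 405 min beyond the spread of the samples (-0.32 ± 0.27, adjusted p = 0.446), with an interval of that difference from -0.85 to 0.22. At 45 min its log2 fold change was -0.62 ± 0.27 (adjusted p = 0.698).

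Klf5, which drives growth of gut epithelium and smooth muscle, is at chr14:99697910-99712628, + strand (mm9). Its CPM were 17.3, 33.01, 1.74, 9.92 and 13.7 in the controls, 19.1, 14.8 and 26.4 at 45 min, 17.2, 15.04 and 9.995 at 135 min and 39.4, 34.2, 18.5 and 33.1 at 405 min. Each time overlapped control, while all 405-min samples lay above all 135-min samples. The library sets did not overlap: the 5 libraries of set 2 had 26.4 to 39.4 CPM and the 10 of set 1 had 1.74 to 19.1 CPM. Its log2 fold change of 1.03 ± 0.50 at 405 min did not pass the test (adjusted p = 0.129) and was 0.51 with library set in the fit (adjusted p = 0.437), and at 135 min it was -0.12 ± 0.55, with the sign turned to 0.24 once library set was in the fit. Klf7, at chr1:64082247-64167963, - strand (mm9) and best known for axon growth in neurons, was divided in the same way. Its CPM were 4.005, 9.37, 0, 1.29 and 0.76 in the controls, 2.69, 4.93 and 10.7 at 45 min, 2.07, 1.15 and 2.23 at 135 min and 9.12, 6.44, 1.74 and 9.13 at 405 min. In set 2 Klf7 had 6.44 to 10.7 CPM and in set 1 no more than 4.93 CPM. Klf7 was not in the fit with group only. Without a filter on low counts its log2 fold change was 0.91 at 45 min (adjusted p = 0.694), -0.80 at 135 min (adjusted p = 0.743) and 1.04 at 405 min (adjusted p = 0.389). Of the fits that held it, the single call was a rise from 135 to 405 min with only those groups (1.83, adjusted p = 0.0316).

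Klf3 is the CtBP-binding repressor of the list and is known from fat cell and red cell differentiation. It is at chr5:65194762-65221368, + strand (mm9). Its CPM were 47.7, 75.3, 30.9, 46.2 and 66.5 in the controls and 54.8, 45.2 and 66.3 at 45 min. They were 21.3, 27.4 and 22.98 at 135 min and 45.3, 41.1, 47.1 and 47.6 at 405 min. The 3 samples at 135 min were thus below all other 12 samples. Klf3 was 2.24-fold lower than control at 135 min (log2 fold change -1.16 ± 0.25 SE, adjusted p = 0.0311) and rose again by 1.89-fold from 135 to 405 min (0.92 ± 0.25, adjusted p = 0.0498). At 405 min it did not differ from control beyond the spread (-0.24 ± 0.22, adjusted p = 0.41, with an interval from -0.67 to 0.19), and at 45 min it was at 0.05 ± 0.24.

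The lowest Klf3 control, replicate 3, was also the shallowest library, and on the deposited RPKM scale its 3.28 lay below the 4.69 to 6.15 of the 135-min samples. The call at 135 min held without control replicate 3 and without control replicate 2, and was lost without any other 1 sample of the comparison, with adjusted p-values up to 0.199 and fold changes from -1.30 to -1.01. Within library set 1 it was -1.003 (adjusted p = 0.0384). The rise from 135 to 405 min was not called with library set in the fit (0.68, adjusted p = 0.152). Neither this rise nor that of Klf6 was called without any 1 of the 135-min samples or of replicates 1, 2 and 4 at 405 min. Against 45 min, the fall at 135 min was -1.22 ± 0.27 and missed the threshold (adjusted p = 0.084). No member was called in that comparison, where 0.243% of all tested genes had fallen. Every 135-min sample was below every 45-min sample in 4 of the 7 members (Klf3, Klf4, Klf6 and Klf9) and in 11.2% of all tested genes. Klf3 and Klf6 had unadjusted p-values under 0.05 there, and DESeq2 called Klf3.

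**Figure D3:**
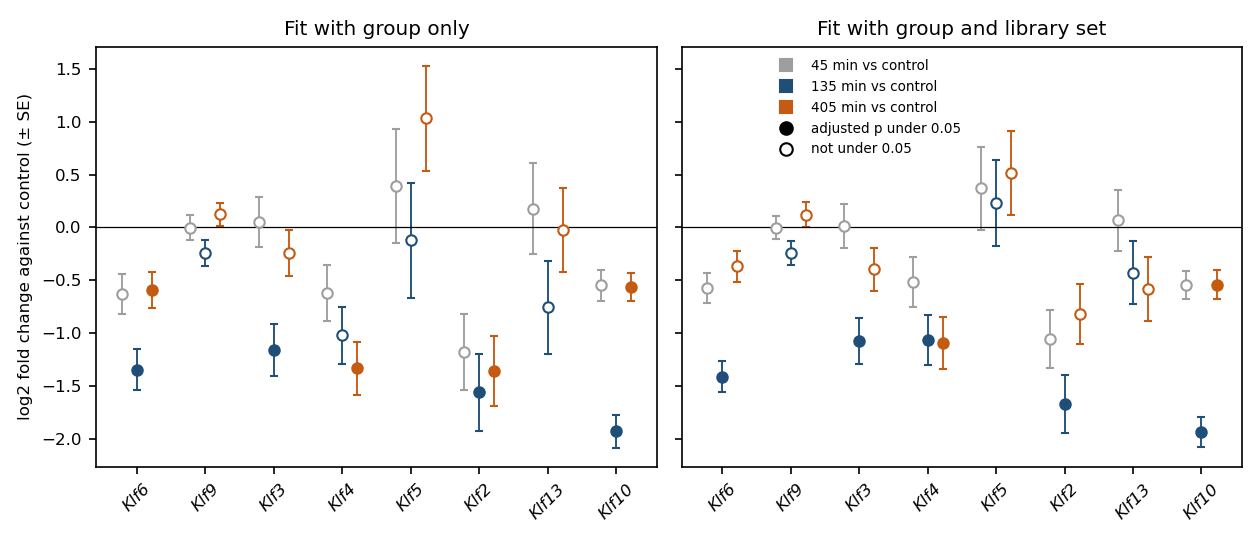
Log2 fold change against control (± SE) of the 7 tested members and Klf10 at 45 min (grey), 135 min (blue) and 405 min (orange), in the fit with group only (left) and with group and library set (right); filled points had an adjusted p under 0.05. At 135 min Klf2, Klf3 and Klf6 are filled on both sides and Klf4 on the right, and at 405 min Klf2 and Klf6 are filled on the left only.

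Of the Sin3A-binding members, neither Klf9 nor Klf13 was called in the fit with group only, and neither was the activator Klf5. This does not hold for all Sin3A-binding factors, since Klf10, described below, fell. Klf9, which is induced by glucocorticoid and thyroid hormone and cycles with the circadian clock, is at chr19:23215716-23241401, + strand (mm9). Its CPM were 71.1, 66.8, 56.5, 68.6 and 72.1 in the controls, 66.99, 64.7 and 69.2 at 45 min, 57.8, 57.04 and 55.2 at 135 min and 68.8, 75.4, 75.2 and 72.5 at 405 min. The highest of the 15 samples was 1.37 times the lowest. The coefficient of variation over the 15 samples was 10.3%, smaller than that of all but 1.73% of the tested genes, whose median was 31.3%, and the log2 difference between library sets was -0.00. At 135 min all 3 samples were below all 4 samples at 405 min, as they were in Klf3, Klf5 and Klf6 and in 19.2% of all tested genes. Neither that rise (0.36 ± 0.13, adjusted p = 0.0955) in edgeR nor the difference of -0.24 ± 0.12 between 135 min and control (adjusted p = 0.455) passed the test, while DESeq2 called the rise (0.35, adjusted p = 0.0042).

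Klf13, a factor known for control of the chemokine gene Ccl5 in T cells, is at chr7:71031238-71083801, - strand (mm9). Its CPM were 9.61, 26.7, 18.7, 11.96 and 6.68 in the controls, 14.7, 10.4 and 24.6 at 45 min, 7.99, 6.69 and 11.3 at 135 min and 21.5, 14.6, 7.92 and 13.6 at 405 min. It was higher in library set 2 by a log2 difference of 1.09 (adjusted p = 0.00268), and the groups overlapped at every time. Its log2 fold change was -0.76 ± 0.44 at 135 min (adjusted p = 0.536) and -0.03 ± 0.40 at 405 min (adjusted p = 0.964). With library set in the fit it was -0.43 (adjusted p = 0.351) and -0.59 (adjusted p = 0.221). Klf15, at chr6:90412620-90425203, + strand (mm9), was at the edge of detection with 13 reads in all, of which 5 were in a single sample, replicate 1 at 135 min. It had no read in any 405-min sample, and a count of 0 in 1 library allows up to 3 reads, so no change could be detected at this depth.

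At 45 min, where no member was called by edgeR or DESeq2, 3 of the 7 members (Klf2, Klf4 and Klf6) had an unadjusted p under 0.05 and all 3 were lower. Of the 10276 genes, 365 had an unadjusted p under 0.05. At 135 min 4 of the 7 members (Klf2, Klf3, Klf4 and Klf6) had every sample below every control, and 4.75% of all tested genes did. The number of members called at 135 min, 3, went to 4 with library set in the fit, where 4.88% of the tested genes fell and 3.06% rose, and within set 1 (Klf4 was added) and to 1 (Klf6) with only control and 135-min samples in the fit. At 405 min, the 3 calls went to 1 (Klf4) with library set in the fit, where 6.87% of the tested genes fell and 6.17% rose. In both library sets all 405-min values of Klf2, Klf4 and Klf6 lay below all control values of that set, as they did in 15.2% of all tested genes, and none of the 3 members was called within a set.

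In the 405-min comparison other features of the cultures moved as well. Of the 9 fibroblast markers, 5 fell (Col1a2, Col3a1, Pdgfra, Pdgfrb and Vim), beside the 13.4% of all tested genes. The summed level of the 9 was 12206 to 16850 CPM beside 15624 to 18667 in control. Without 1 sample, the calls held in 3 of 9 fits for Col1a2, 8 for Pdgfrb and Vim, and 9 for Col3a1 and Pdgfra. The markers of other cell types summed to 6.38 to 6.82 CPM at 405 min and to 1.31 to 4.53 CPM in control, of which 3 of 4 and 1 of 5 samples belonged to library set 2. The part of these shifts in the Klf values was not tested.

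The table held 8 further Klf genes, of which 5 could be tested. Klf10, known as TGFβ-inducible early gene 1 and, like Klf9, a Sin3A-binding factor, was the single one of these called at any time by edgeR. It is at chr15:38224168-38230462, - strand (mm9). Its CPM were 78.4, 65.97, 66.2, 63.9 and 62.99 in the controls and 42.2, 51 and 45.3 at 45 min. They were 18.2, 19.7 and 15.2 at 135 min and 47.1, 40.5, 46.5 and 48.7 at 405 min. By CPM all samples of the 3 time points lay below all controls, and those at 135 min were lowest. By RPKM control replicate 3, at 5.35, lay below the samples at 45 min (7.76 or more) and 405 min (6.64 or more). It lay above those at 135 min (at most 3.36). Klf10 was 3.81-fold lower than control at 135 min (log2 fold change -1.93 ± 0.15 SE, adjusted p = 1.38e-05) and 1.48-fold lower at 405 min (-0.56 ± 0.13, adjusted p = 0.00982), after a rise of 2.58-fold between these times (1.37 ± 0.15, adjusted p = 0.00105). At 45 min it was -0.55 ± 0.14, which edgeR did not call (adjusted p = 0.698) and DESeq2 did (-0.57, adjusted p = 0.0427). Its log2 difference between library sets was -0.04. The course of Klf10 over the 15 samples had a Pearson r of 0.89 with Klf6, 0.76 with Klf3, 0.63 with Klf2 and 0.48 with Klf4 in log2 CPM, as a description of samples that share their groups and library sets.

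Klf11, a TGFβ-inducible relative of Klf10, had log2 fold changes of 0.04 ± 0.29 at 135 min and 0.01 ± 0.27 at 405 min. Klf12, a CtBP-binding repressor like Klf3, had -0.53 ± 0.31 and -0.01 ± 0.28. Klf16 and Klf8 were low, with at most 14.6 and 1.74 CPM, and were not called. Klf1, Klf14 and Klf17 were at 0 in at least 1 sample and never above 2.46 CPM.

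The pairwise likeness of the 4 members that were lower was uneven. Over the 15 samples, Pearson's r of log2 CPM was 0.87 between Klf2 and Klf6 and 0.82 between Klf2 and Klf4, but 0.14 between Klf2 and Klf3 and 0.18 between Klf3 and Klf4. With the mean of each library set removed these became 0.92, 0.77, 0.43 and 0.50. Among all tested genes, the profile most like that of Klf3 was Egr1 (r = 0.93), a serum-induced zinc finger factor. For Klf6 they were Tmem18 (0.95) and Id2 (0.93), an inhibitor of helix-loop-helix factors, and for Klf4 they were Plscr2 (0.95) and Nr2f1 (0.94). Klf2 was closest to Ovca2 (0.95) and Zfp143 (0.94). The samples share groups, depth and library sets, so these are descriptions.

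The genes that act upstream of the family, and those described as its targets, were taken as lists. Mef2c, which encodes a MEF2 factor of the ERK5 pathway upstream of Klf2 and Klf4, was the single gene called of 6 in that list in the fit with group only. Its log2 fold change was -0.64 ± 0.21 at 405 min (adjusted p = 0.0401), where 13.4% of all tested genes fell. It was not called with library set in the fit (adjusted p = 0.105), and was called in 2 of 9 fits without 1 sample. DESeq2 called Mef2c lower at 135 min, and at 405 min Mef2c and Map2k5, 1 lower and 1 higher. Of 6 tested genes for the glucocorticoid receptor and its responsive genes, 2 fell at 135 min, beside 0.895% of all tested genes. Errfi1, an inhibitor of EGF receptor signalling, fell by 2.43-fold and Sgk1, a kinase of ion transport and survival, by 2.21-fold. Without 1 sample these calls held in 3 and 2 of 8 fits. At 405 min 3 fell, beside 13.4% of all tested genes. Sgk1 fell by 1.92-fold, Fkbp5 by 1.66-fold and the receptor gene Nr3c1 by 1.51-fold, each called in all 9 fits without 1 sample. Klf9, another gene of glucocorticoid response, was not called at these times. With library set in the fit, 3 of the 6 fell at 135 min and 5 of the 6 at 405 min, beside the 4.88% and 6.87% of all tested genes.

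Serum immediate-early genes are transiently induced by growth factors, as Klf2, Klf4, Klf6 and Klf10 can be. Of 7 tested, 1 fell at 135 min and 2 fell at 405 min, beside 0.895% and 13.4% of all tested genes. Egr1 fell by 6.51-fold at 135 min (log2 fold change -2.70 ± 0.57, adjusted p = 0.031), and Egr2 fell by 3.06-fold and Ier2 by 1.78-fold at 405 min. Ier3, which protects against apoptosis, went the other way and rose 4.25-fold at 135 min and 5.82-fold at 405 min, where 0.564% and 9.99% of all tested genes rose. Without 1 sample, the 135-min calls of Egr1 and Ier3 held in 3 and 2 of 8 fits. At 405 min those of Egr2, Ier2 and Ier3 held in 6, 8 and 9 of 9 fits. With library set in the fit the counts were 2 lower and 1 higher at 135 min and 4 lower and 1 higher at 405 min. Of all tested genes, 4.88% fell and 3.06% rose in that fit at 135 min, and 6.87% fell and 6.17% rose at 405 min. The medians of the list at 135 and 405 min were -0.97 and -0.71 with group only, and -0.85 and -0.76 with library set.

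Among 11 tested genes described as Klf targets, Cdkn1a, the gene for p21, an inhibitor of cell cycle kinases, rose 4.88-fold at 135 min (log2 fold change 2.29 ± 0.25, adjusted p = 0.000218) and 3.55-fold at 405 min. Klf4 and Klf6 are known activators of Cdkn1a, and p53 is another. Trp53, a gene that Klf4 can repress, was 2.85-fold higher at 405 min (adjusted p = 0.0348), but not with library set in the fit (adjusted p = 0.0709). Thbd, the thrombomodulin gene that Klf2 activates in endothelium, fell by 1.43 on the log2 scale at 405 min (adjusted p = 0.0125), and this was not called with library set in the fit (adjusted p = 0.0569). Plau, encoding urokinase, fell by 1.19 (adjusted p = 0.0075). Tgfbr1 and Lgals3 fell too, by 0.81 and 0.44, and neither was called with library set in the fit. Without 1 sample, the 405-min calls of Trp53, Lgals3 and Tgfbr1 held in 2, 3 and 7 of 9 fits. Those of Cdkn1a, Thbd and Plau held in all 9. In all, 1 rose and none fell at 135 min, where 0.564% of all tested genes rose and 0.895% fell. At 405 min 2 rose and 4 fell, where 9.99% of all tested genes rose and 13.4% fell. The list medians were -0.07 and -0.34. With library set in the fit, 2 rose and 1 fell at 135 min (Cdkn1a, Trp53 and Thbd were called), where 3.06% of all tested genes rose and 4.88% fell. In that fit 1 rose and 2 fell at 405 min (Cdkn1a, Ccnd1 and Plau), where 6.17% of all tested genes rose and 6.87% fell.

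Of the 10 cofactors, none was called at 135 min by edgeR or DESeq2, with none at an unadjusted p under 0.05. At 405 min 3 had fallen, beside 13.4% of all tested genes. Hdac2, a histone deacetylase of the Sin3 complex, fell by 0.96 on the log2 scale. Serbp1, which encodes an mRNA-binding protein, fell by 0.88 and Ctbp2, a corepressor that Klf3 binds, by 0.41. Without 1 sample these calls held in 6, 7 and 4 of 9 fits. Hdac2 was not called with library set in the fit (adjusted p = 0.0859). Among 6 genes for turnover of Klf proteins, 1 rose and 1 fell at 405 min, beside 9.99% and 13.4% of all tested genes. Btrc, an F-box protein of a ubiquitin ligase, rose by 0.55, and Wwp1, a ubiquitin ligase for Klf2 and Klf5, fell by 0.84. Without 1 sample these calls held in 4 and 2 of 9 fits. Neither Btrc nor Wwp1 was called with library set in the fit. That fit called Fbxw7 of this list higher at 135 min, where 3.06% of all tested genes rose. The Sp factors share the DNA-binding fold and the GC box with the Klf family. Of 4 tested Sp genes none was called at 135 or 405 min by edgeR or DESeq2, with 0 and 1 at an unadjusted p under 0.05.

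**Figure D4:**
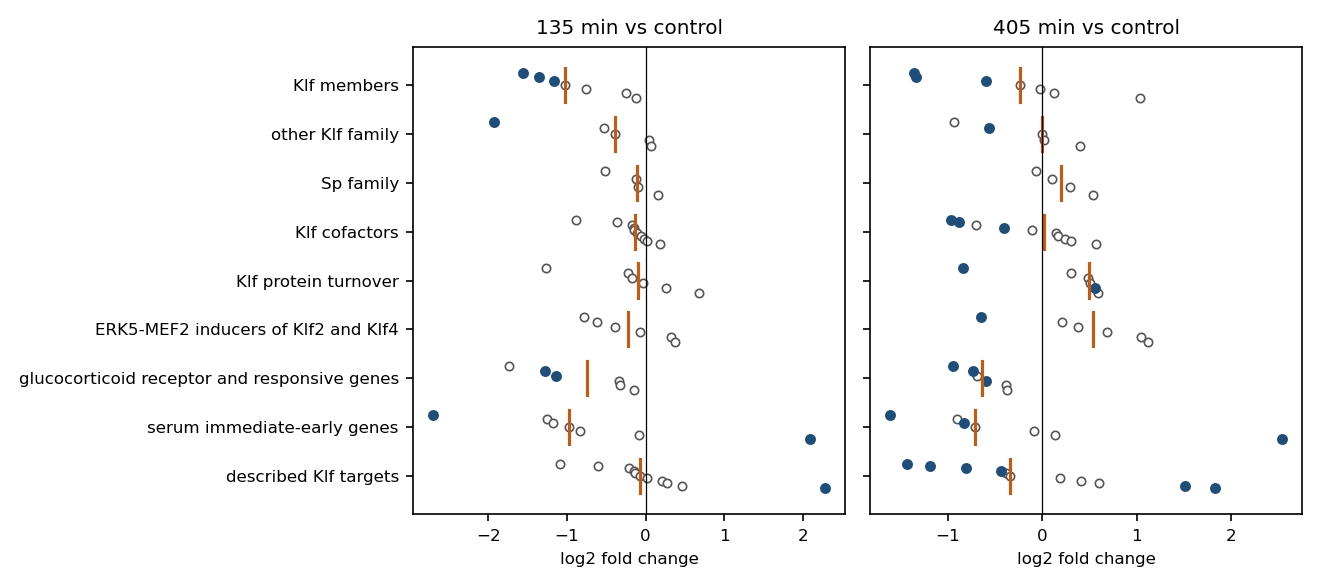
Log2 fold change of each tested gene (horizontal axis) at 135 min and 405 min against control, by list (vertical axis); filled points had an adjusted p under 0.05 and the orange bar is the median of the list. The Klf members have a median of -1.02 at 135 min with filled points on the lower side only, the immediate-early list has Egr1 at -2.70 and Ier3 at 2.09, and Cdkn1a is the filled point of the target list at 2.29.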

How the data were processed

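mRNA-seq tables of 15 samples were used, grouped by their titles. By the study's account, the authors mapped reads to mm9 and quantified them against RefSeq on DNAnexus. The aligner is not given in the sources used here. The values deposited as read counts were estimated counts (8.71 to 15.6% of genes held a fraction) and were rounded. RPKM deposited by the authors was used for levels between genes. A score and a ratio of RPKM that the authors deposited, 2 columns per table, were not used. edgeR 4.0.16 in R 4.3.3 fitted 1 quasi-likelihood model by group to all 15 samples, with TMM, on genes without a 0 in any sample (minimum count 1) and a Benjamini-Hochberg threshold of 0.05. SEs come from the F statistic and intervals are 1.96 SE to either side. Log2 CPM used a prior count of 2. DESeq2 1.42.0 was an alternative. The steps were tested on simulated data. No replicate pair of 22 agreed within sampling noise (lowest chi-square per degree of freedom 11.98). Exonic GC came from the mm9 genome with GENCODE exons and covered 95.9% of tested genes. Coordinates of genes are mm9, those of promoters GRCm38.p6 (RefSeq). Motifs were searched on both strands in 250 bases. The limit given for a count of 0 reads covers counting error only. Members and lists were chosen with earlier results of these data known. All members are named, and of each list the called genes, up to 4 of largest change.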

Additional observations from a re-analysis of the deposited data

How the results depend on the processing

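Alternatives were DESeq2 size factors, the DESeq2 test, no filter, edgeR's filterByExpr, only the compared groups, a replicate block, library set as a term or 1 set at a time, and 15 fits without 1 sample each. Those with library set 2 alone, or with block and library set together, were chosen after seeing the data. No member was called at 45 min in any of them. At 135 min against control the 3 called members became 1 without a filter, with only the compared groups and with the block, and 1 to 4 without 1 sample. The lone call was Klf6 in each of these cases. The count was 2 (Klf3 and Klf6) with DESeq2 size factors and with filterByExpr, and 4 with DESeq2, with library set, within set 1 and with block and library set. At 405 min the 3 became 1 (Klf4) with the block, with library set, and with both together, 2 (Klf2 and Klf4) with only the compared groups, 0 within set 1 or set 2, and 2 to 4 without 1 sample (the fourth was Klf5, higher, without control replicate 2). Within each set 1 group was a single sample, assumed to vary like the others. Between 45 and 135 min the count of 0 became 1 with DESeq2, with only the compared groups and with block and library set, and 2 with library set, and stayed 0 without any 1 sample. Between 135 and 405 min the 2 became 0 without a filter, with filterByExpr, with the block and within set 1, 1 with library set and with block and library set, 4 (Klf3, Klf5, Klf6 and Klf7) with only the compared groups, 3 (Klf3, Klf6 and Klf9) with DESeq2, and 0 to 2 without 1 sample. Over all tested genes, 92 fell at 135 min, and 501 with library set, 361 within set 1, 386 with block and library set, 269 with DESeq2, 48 without a filter, 24 with only the compared groups and 20 with the block. At 405 min 1382 fell, and 706 with library set, 640 with block and library set, 467 with the block, 463 with only the compared groups, 94 within set 1 and 239 within set 2. Also at 405 min, 1972 fell with the DESeq2 test, 1424 with DESeq2 size factors, 1300 with filterByExpr and 1011 without a filter. Without 1 sample, 528 to 2463 fell at that time. The cause of these changes was not tested.

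Replicate numbers did not pair the samples: over 19 pairs with the same number the deviations from group means had a mean correlation of -0.11, and 4 pairs were over 0.1, so the block result stands only here.

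No called fold change of a member or of Klf10 turned its sign. Values that missed the threshold did. At 45 min within set 2 Klf3 was at -0.19, Klf4 at 0.32, Klf5 at -0.33, Klf9 at 0.050 and Klf13 at -0.12. Klf9 at 45 min was at 0.00037 with only the compared groups, 0.038 with the block and 0.035 with block and library set, and Klf13 at -0.11 and -0.16 in the last pair. Klf5 at 135 min was at 0.24 with library set, 0.37 within set 1 and 0.34 with block and library set. Klf13 between 135 and 405 min was at -0.16, -0.15 and -0.092 in the same fits. Without 1 sample, Klf3 at 45 min ranged from -0.097 to 0.21, Klf9 from -0.067 to 0.023 and Klf13 from -0.22 to 0.52, Klf5 at 135 min from -0.39 to 0.37 and Klf13 at 405 min from -0.28 to 0.32. Depth limits Klf15 and Klf7.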

Other observations

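Klf16, a Sin3A-binding relative of Klf9, was higher in library set 2 than in set 1 by a log2 difference of 1.56 (edgeR, adjusted p = 0.00224), and Klf8, a CtBP-binding relative of Klf3 with 2 to 13 reads per sample, was lower by -2.01 (adjusted p = 0.0348). Klf12, with a difference of 0.38 (adjusted p = 0.204), and Klf11, with 0.22 (adjusted p = 0.498), did not differ beyond the spread of the samples. Of the 12 Klf genes tested, 6 differed between sets, beside 50.1% of all tested genes, and Klf10 and Klf9 had the differences nearest 0. The sets were drawn from the GC slope of these same levels, so these p-values are descriptions.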
